A study of Mus musculus with 4 samples.

Results

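Osteopontin, GPNMB, 3 galectins and CD44, proteins of macrophage responses in adipose tissue, were followed at the transcript level through single-cell libraries of mouse brown fat. The genes were osteopontin (*Spp1*), *Gpnmb*, the galectins *Lgals1*, *Lgals3* and *Lgals9*, and *Cd44*, a receptor for hyaluronan and osteopontin. The 6 genes were taken by symbol from the 32285 gene entries of the count matrices, and each symbol matched a single entry. The study profiled the stromal vascular fraction (SVF) of brown adipose tissue, the cells left once floating adipocytes are removed, by 10x Genomics 3′ RNA sequencing. The C57BL6/J mice formed 4 groups: wild-type (WT) mice labelled 10 weeks old, db/db mice of 8 weeks (db/db 8w), older db/db mice of 16 weeks (db/db 16w), and mice on a high-fat diet (HFD). Each group was 1 library, made from pooled animals. The db/db mice (B6.BKS(D)-Leprdb/J in the study's methods) lack a working leptin receptor and become obese and diabetic. The HFD library is labelled 10 weeks old, whereas the methods place the start of the diet at that age, so the age of those mice is uncertain. With single libraries no difference between groups could be tested: intervals below are 95% and cover counting error only, and genotype, diet, age and library cannot be told apart. Values given as a series of 4 follow the order WT, 8-week db/db, 16-week db/db, HFD, and ratios to WT given as a series of 3 follow the same order of the obese libraries.

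Osteopontin is a secreted, acidic glycoprotein that binds integrins and CD44, and GPNMB is a membrane glycoprotein found with lysosomes and phagocytosis whose gene is a known target of MiT/TFE transcription factors. Galectins are lectins that bind beta-galactosides on glycoproteins: galectin-1 and galectin-3 act inside and outside the cell, and galectin-9 carries a pair of carbohydrate-binding domains. In white adipose tissue, *Spp1*, *Gpnmb* and *Lgals3* are among the transcripts by which lipid-associated macrophages (LAMs) are known, the TREM2-positive cells that surround dying adipocytes.

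On the GRCm38 (mm10) build, with GENCODE annotation, *Spp1* lay on chromosome 5 (104435118 to 104441050, plus strand), *Gpnmb* on chromosome 6 (49036546 to 49070929, plus), *Lgals1* on chromosome 15 (78926725 to 78930465, plus), *Lgals3* on chromosome 14 (47367751 to 47386160, plus), *Lgals9* on chromosome 11 (78962974 to 78984946, minus) and *Cd44* on chromosome 2 (102811141 to 102901665, minus). All 6 were protein-coding. A transcript model that GENCODE marks as awaiting experimental support, *Gm42793*, overlapped *Spp1* on the same strand, so reads of the overlap could not be assigned with certainty. RefSeq promoter windows of GRCm38.p6 (250 bases before to 50 after a start site) were found for 5 of the 6 genes, all but *Lgals1*. The 250 bases before the start are shown for *Spp1* (its first start site, chr5:104434861-104435110) and *Gpnmb* (chr6:49036268-49036517), both on the plus strand, because these were the members with the lowest levels in WT macrophages and the largest ratios in the obese libraries. Capitals mark matches to the RUNX motif AACCACA and, in *Spp1*, the PU.1 motif GAGGAAGT.
Spp1: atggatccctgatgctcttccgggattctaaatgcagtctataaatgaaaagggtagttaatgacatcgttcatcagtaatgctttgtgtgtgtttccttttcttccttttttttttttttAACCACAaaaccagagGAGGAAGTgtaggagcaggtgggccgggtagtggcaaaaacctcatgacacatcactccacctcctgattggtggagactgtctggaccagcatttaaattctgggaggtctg
Gpnmb: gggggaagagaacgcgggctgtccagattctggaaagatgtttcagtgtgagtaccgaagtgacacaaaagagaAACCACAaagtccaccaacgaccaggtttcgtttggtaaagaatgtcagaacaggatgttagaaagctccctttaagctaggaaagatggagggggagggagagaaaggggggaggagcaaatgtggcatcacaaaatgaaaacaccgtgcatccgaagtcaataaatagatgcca
The windows were searched on both strands for 5 motifs: AACCACA (RUNX), GAGGAAGT (PU.1), TGANTCA (AP-1), CACGTG (E-box) and TCATGTG (M-box). No match overlapped another in these windows. AACCACA was found 129 to 123 bases before the start of *Spp1* and 176 to 170 bases before that of *Gpnmb*, and its reverse complement 11 to 17 bases after that of *Lgals9*. It was present in 5.27% of all 32851 promoter windows. GAGGAAGT lay 113 to 106 bases before the *Spp1* start and was present in 3.20% of windows, and TGANTCA lay 9 to 15 bases after the *Gpnmb* start and was present in 7.81% of windows. No match to CACGTG (7.15% of windows) or TCATGTG (3.77% of windows) was found in the windows of these 5 genes, nor any match to the 5 motifs in those of *Lgals3* and *Cd44* or at the second start site of *Spp1*. These matches describe letters in a window and not binding.

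Cells were kept by the study's quality limits, which left 5462 to 11648 cells and 26558173 to 53420105 UMIs (unique molecular identifiers, counted transcripts) per library, with median UMIs per cell of 2733 to 6219. Between 1.04% (db/db 16w) and 68.5% (HFD) of barcodes were over the mitochondrial limit. The db/db 16w library held *Xist* RNA at 207 CPM (UMIs of a gene scaled to a common total) against 0.187 to 0.688 CPM in the others, although the methods describe male mice throughout, and Y-linked genes stood at 17.7 CPM there against 164 to 188 CPM. Sex may therefore also differ in that library and cannot be told apart from genotype and age there. No library pair shared more than 0.629% of its barcodes. Adipocyte transcripts (summed over *Adipoq*, *Plin1*, *Cidec*, *Ucp1*, *Cfd* and *Car3*) stood at 40.4, 44.2, 60.5 and 203 CPM, and their part in the results below was not tested. Lineages were gated on raw marker UMIs that include none of the 6 members. The monocyte and macrophage (Mono/MAC) gate held 1254, 3103, 2498 and 1645 cells, and the stromal gate 4296, 6247, 1161 and 1608 cells. *Tyrobp*, a myeloid adaptor that no gate used, stood at 1243 to 2641 CPM in Mono/MAC-gated cells and 12.8 to 124 CPM in stromal-gated cells. The WT library held only 8 endothelial-gated cells.

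The plot of summed levels shows the main pattern. In Mono/MAC-gated cells, *Spp1*, *Gpnmb*, *Lgals1* and *Lgals3* were higher in every obese library than in WT, *Lgals9* was lower in all 3, and *Cd44* was higher in db/db 8w and HFD, with no direction given for db/db 16w. A gene was counted as past 2-fold when the ratio of (CPM + 10) between both libraries was at least 2 or at most its inverse, among genes with at least 20 CPM in either library. By that rule, 4 of the 6 members were higher and 1 was lower in each obese library. In db/db 8w, 3.45% of all 5745 genes compared were higher and 3.31% lower. In HFD the corresponding backgrounds were 8.84% and 8.27%. In db/db 16w, where the whole library stood further from WT, they were 17.1% and 19.0%. The median log2 ratio of the 6 members was 2.16, 3.55 and 2.28, beside 0.05, -0.07 and 0.16 over all genes compared. The 3 comparisons share the WT library.

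**Figure D1:**
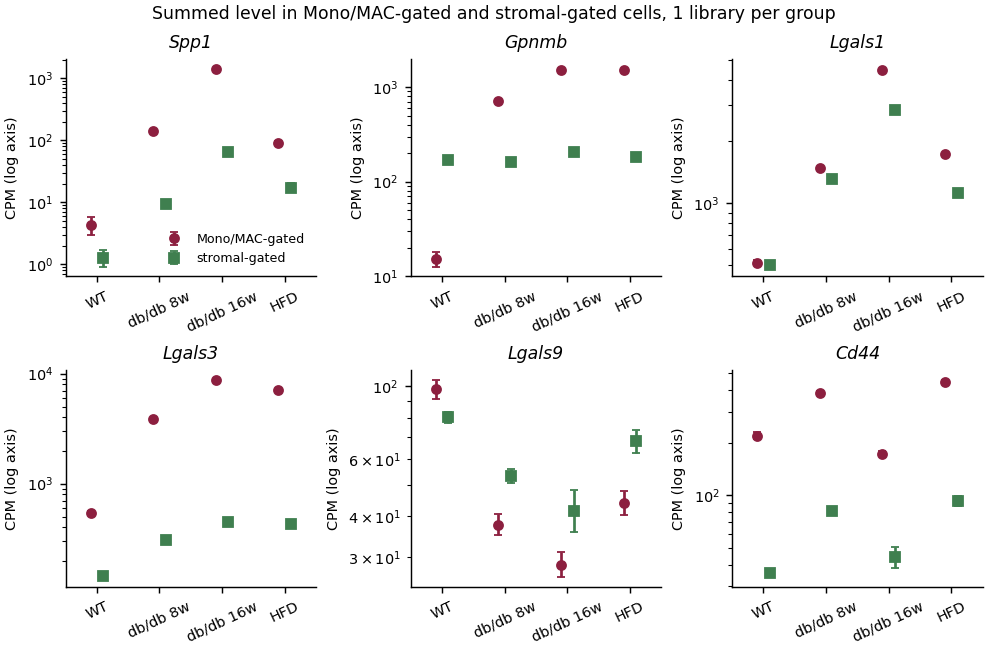
Level of each member in CPM (log axis, 1 panel per gene with its own range) in Mono/MAC-gated (circles) and stromal-gated (squares) cells of the 4 libraries; bars are 95% Poisson intervals of the summed UMIs and are often smaller than the symbols. *Spp1* in Mono/MAC-gated cells was at 4.23 CPM in WT and reached 1401 CPM in db/db 16w, and *Gpnmb* in stromal-gated cells stayed between 159.5 and 205 CPM.

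*Spp1* encodes the secreted ligand of the group. In Mono/MAC-gated cells its levels were 4.23 (35 UMIs), 141, 1401 and 90.5 CPM. The db/db 16w library was therefore far above the other obese libraries. In these summed counts, db/db 8w was above HFD beyond counting error (intervals 136 to 146 and 85.2 to 96.1 CPM). Log2 ratios to WT were 5.06 (4.58 to 5.58), 8.37 (7.90 to 8.89) and 4.42 (3.93 to 4.95). Those ratios rest on the 35 WT UMIs and carry the widest intervals of the members.

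*Gpnmb*, the membrane glycoprotein, reached a similar level in 2 obese libraries that differed widely in *Spp1*. Its levels in Mono/MAC-gated cells were 15.2, 714, 1513 and 1530.2 CPM. The last 2 intervals overlapped (1495 to 1531 and 1508 to 1552 CPM). Against WT, the log2 ratios were 5.55 (5.30 to 5.82), 6.63 (6.38 to 6.90) and 6.65 (6.40 to 6.91). Thus, in summed counts, *Spp1* was higher in db/db 8w than in HFD, and *Gpnmb* was higher in HFD than in db/db 8w. The share of cells with *Spp1*, given below, did not follow that order.

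The galectins did not move alike. *Lgals3*, encoding galectin-3, was the most abundant member and stood at 545, 3874, 8802 and 7059.6 CPM, which gave log2 ratios to WT of 2.83, 4.01 and 3.69. *Lgals1*, encoding galectin-1, stood at 512, 1484, 4476 and 1738 CPM, with log2 ratios of 1.53, 3.13 and 1.76. *Lgals9*, encoding galectin-9, ran the other way. Its levels were 98.0, 37.7, 28.4 and 43.9 CPM, and gave log2 ratios of -1.38 (-1.52 to -1.23), -1.79 (-1.95 to -1.63) and -1.16 (-1.32 to -0.998). The HFD value was at the edge of the 2-fold rule (-1.003 with the added 10 CPM). WT had the highest *Lgals9* level and the lowest *Lgals1* and *Lgals3* levels of the 4 libraries.

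*Cd44*, the receptor, stood at 219.8, 386, 173 and 449 CPM in Mono/MAC-gated cells. Its log2 ratios against WT were 0.81 (0.74 to 0.89), -0.35 (-0.43 to -0.26) and 1.03 (0.95 to 1.11), and with the added 10 CPM the HFD value fell just inside the rule. Under the alternatives tried, with 10 CPM added unless the pseudocount was changed, the log2 ratio ran from 0.84 to 2.08 in HFD and from 0.74 to 1.42 in db/db 8w. Both were past 2-fold with equal weight per cell (1.49 and 1.11), after thinning (1.90 and 1.42), without the deepest 10% of cells (1.36 and 1.11) and without cycling cells (2.08 and 1.37). The direction in db/db 16w depended on how cells were weighted: with 10 CPM added and equal weight per cell the log2 ratio was 0.02, after thinning each cell to 1000 UMIs before gating it was 0.09, and without cells that held cycling transcripts it was 0.41. No direction is therefore given for *Cd44* in that library.

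Between the 2 ages of db/db mice, the same 4 transcripts were higher in Mono/MAC-gated cells at 16 weeks and *Cd44* was lower (background 6.59% higher and 11.9% lower). *Spp1* differed most, with a log2 ratio of 3.31 (3.26 to 3.37), followed by *Lgals1* at 1.59, *Lgals3* at 1.18 and *Gpnmb* at 1.08. *Cd44* was lower by a log2 ratio of -1.16 (-1.22 to -1.10), and *Lgals9* was within 2-fold at -0.41.

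Over all quality-passing cells, which needs no gate, *Lgals3* stood at 232, 1805, 6419 and 3146 CPM and *Gpnmb* at 135, 390.1, 1115 and 707 CPM. Here 5 members were higher in db/db 8w (background 3.96%) and in HFD (background 11.1%), *Cd44* among them, and none was lower (2.96% and 8.61%). In db/db 16w 4 were higher and 1, *Lgals9*, lower (background 15.6% and 18.8%). These sums mix a change in the cells present with a change inside them, and fewer cells of a type and less RNA per cell cannot be told apart in them.

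The gates that held the transcripts differed between libraries. In WT, stromal-gated cells held 96.6% of all *Gpnmb* UMIs and Mono/MAC-gated cells 2.07%. In the obese libraries, Mono/MAC-gated cells held 67.0%, 92.9% and 79.8% of them. The level in the stromal gate varied little, at 169, 159.5, 205 and 182 CPM, and the part of macrophage RNA in it was not tested. For *Lgals1* the Mono/MAC share was 19.0% in WT and 40.6%, 82.9% and 55.9% in the obese libraries, and for *Lgals3* it was 43.1% against 78.5%, 93.9% and 82.7%. *Lgals9* stayed mostly outside the Mono/MAC gate except in db/db 16w, where 57.8% of its UMIs were found there. These shares follow the numbers of cells and UMIs in each gate as well as the level within it: Mono/MAC-gated cells supplied 18.4%, 36.6%, 68.5% and 36.9% of all UMIs.

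**Figure D2:**
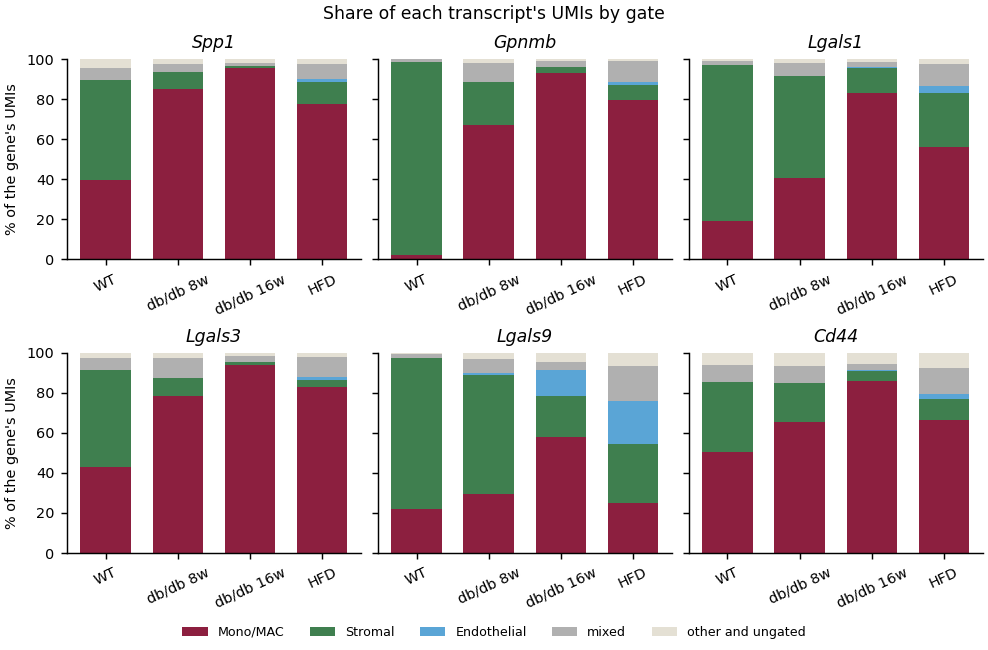
Percentage of each gene's UMIs that came from Mono/MAC-gated, stromal-gated, endothelial-gated, mixed and all other cells, stacked to the whole, for the 4 libraries. *Gpnmb* was 96.6% stromal in WT, whereas the Mono/MAC gate held most of it in the 3 obese libraries.

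Within stromal-gated cells, the adipose progenitors and fibroblasts, *Lgals1* and *Lgals3* were past 2-fold higher in all 3 obese libraries. The part of macrophage RNA in these levels was not tested. *Lgals1* stood at 498, 1309, 2840.2 and 1124 CPM, so its stromal level in WT was close to its Mono/MAC level. *Lgals3* stood at 145, 306, 452 and 426 CPM. With the gate at 90% in place of 75%, stromal *Lgals3* was no longer past 2-fold in db/db 8w (log2 ratio 1.03 to 0.71 with 10 CPM added) or db/db 16w (1.57 to 0.79). *Cd44* was past 2-fold in HFD (35.9 CPM in WT, 93.0 CPM in HFD) and, with the added 10 CPM, just under it in db/db 8w at 81.3 CPM. *Lgals9* stood at 80.5, 53.1, 41.6 and 68.0 CPM, past 2-fold in no obese library. It was lower than in WT at either db/db age. For HFD its log2 ratio ran from -0.29 to 0.11 under the alternatives tried, so no direction is given there. The counts were 2 higher of 5 members compared in db/db 8w (background 2.75%), 3 of 6 in db/db 16w (background 9.12%) and 3 of 5 in HFD (background 6.91%), with none lower (backgrounds 1.70%, 10.2% and 5.44%).

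Stromal-gated *Spp1* was low and carried by few cells. It stood at 1.26, 9.44, 65.6 and 17.2 CPM, and in db/db 16w only 7 of 1055 thinned cells (0.664%) held a UMI of it. When the deepest 10% of the cells were left out, its log2 ratio in db/db 16w, with 10 CPM added, went from 2.75 to 0.68, and that of *Lgals3* from 1.57 to 0.88, whereas that of *Lgals1* went from 2.49 to 2.04. The myeloid transcript *Tyrobp* stood at 12.8, 81.8, 92.6 and 124 CPM in the same gate. Like *Spp1*, *Lgals1* and *Lgals3*, it was above WT in every obese library. Among the obese libraries the order differed. *Tyrobp* was highest in HFD, where *Spp1* and *Lgals1* were below their levels in the older db/db library. In Mono/MAC-gated cells, *Spp1* and *Lgals1* were likewise lower in HFD (90.5 and 1738 CPM) than in db/db 16w (1401 and 4476 CPM). In db/db 16w, the CPM of *Lgals1* divided by that of *Tyrobp* was 30.7 in stromal-gated and 1.69 in Mono/MAC-gated cells. The same quotient was 4.88 and 3.33 for *Lgals3*, and 0.709 and 0.530 for *Spp1*. For *Lgals3* it was 11.3 and 0.439 in WT, 3.74 and 1.94 in db/db 8w, and 3.44 and 2.94 in HFD. For *Lgals1* it was 16.0 and 0.744 in db/db 8w, and 9.09 and 0.723 in HFD. The part of macrophage RNA in these stromal levels was not tested.

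Endothelial-gated cells, present in number in db/db 16w and HFD, had the lowest levels of *Spp1* (12.4 and 4.69 CPM) and *Cd44* (9.14 and 45.7 CPM) among the 3 large gates. Their *Lgals9* level, at 75.1 CPM (62.0 to 90.2) in db/db 16w and 107 CPM (97.6 to 117) in HFD, was above the Mono/MAC and the stromal level of the same library. The order of *Lgals9* levels by gate was thus endothelial, stromal and Mono/MAC in these 2 libraries, while in WT the Mono/MAC level (91.4 to 105 CPM) was above the stromal level (77.5 to 83.5 CPM).

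Mono/MAC-gated cells were then split by markers that exclude the 6 members. The LAM side was defined by *Trem2*, *Cd9*, *Fabp5*, *Plin2*, *Mmp12* and *Atp6v0d2*, and the side of perivascular macrophages (PVM side) by *Lyve1*, *Folr2*, *Cd163*, *Selenop*, *Mrc1*, *F13a1*, *Timd4* and *Cbr2*. The LAM side held 1.28% (16 cells), 17.9%, 50.0% and 35.9% of the Mono/MAC-gated cells. These sides are ranges of a score: 17.5% to 42.2% of the cells lay within 10 percentage points of the limit.

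On the LAM side, *Spp1*, *Gpnmb*, *Lgals1*, *Lgals3* and *Cd44* were higher than on the PVM side of the same library in 4 of 4 libraries, and *Lgals9* in 1 of 4. For *Lgals9* the interval of the log2 difference excluded 0 in db/db 8w alone (-1.14 to -0.61). In HFD, the library where it was higher, the interval was -0.05 to 0.86. The exact two-sided sign-flip permutation test over the 4 libraries gave p = 0.125 for each of the 5, the smallest value that 4 libraries allow, and p = 0.375 for *Lgals9*, so the design cannot reach the usual threshold. Past 2-fold were the same 4 members in each obese library, *Spp1*, *Gpnmb*, *Lgals1* and *Lgals3*, beside backgrounds of 6.15%, 4.46% and 5.13%. None was lower (background 8.82%, 11.1% and 6.17%).

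*Gpnmb* separated the sides by a log2 difference of 5.62 in WT, at 5.89 CPM on the PVM side and 289 CPM on the LAM side. In db/db 8w it stood at 45.4 and 1711 CPM (log2 5.24). The difference was smaller in db/db 16w (218 and 1900.0 CPM, log2 3.12) and HFD (205 and 2472 CPM, log2 3.59), where the PVM-side level was higher. PVM-side *Spp1* stood at 16.4, 73.6 and 7.19 CPM in the obese libraries and LAM-side *Spp1* at 345, 1815 and 116 CPM, with log2 differences of 4.39, 4.62 and 4.01. In WT its LAM side had 2 UMIs and the log2 difference of 2.44 had an interval of -0.74 to 4.54.

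*Lgals3* was already high in the 16 LAM-side cells of WT. It stood there at 6206 CPM (5847 to 6581), beside 358 CPM on the WT PVM side, and at 8168, 10845 and 10234 CPM on the LAM side of the obese libraries. The LAM-side levels of *Lgals3* thus spanned less than its PVM-side levels, which were 358, 838, 2079 and 1550.2 CPM. *Lgals1* differed less between sides, by log2 1.02 to 1.52 across the 4 libraries. *Cd44* had log2 differences of 1.74, 0.38, 0.997 and 0.23.

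**Figure D3:**
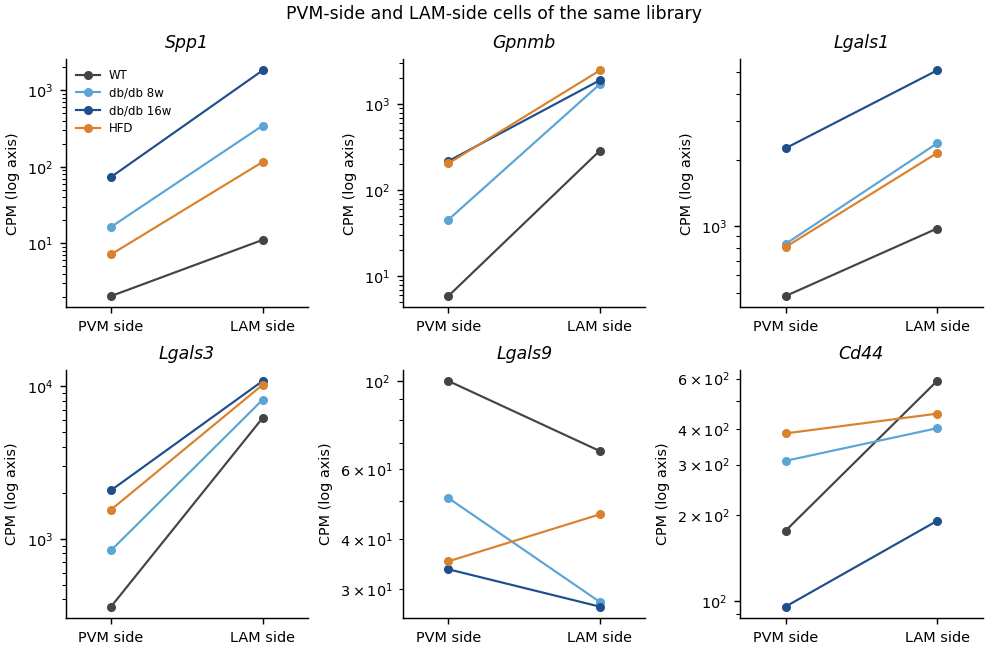
Level in CPM (log axis, 1 panel per gene with its own range) on the PVM side and on the LAM side of Mono/MAC-gated cells, with a line joining the 2 values of each library; each library is 1 sample and WT has 16 LAM-side cells. All 4 lines slope up for 5 genes, and for *Lgals9* only the HFD line does.

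The PVM side also differed between libraries. There, 2 members were higher than in WT in db/db 8w (*Gpnmb* and *Lgals3*; background 1.08%), 4 in db/db 16w (*Spp1*, *Gpnmb*, *Lgals1* and *Lgals3*; background 11.3%) and 3 in HFD (*Gpnmb*, *Lgals3* and *Cd44*; background 6.16%). *Lgals9* was lower in db/db 16w (background 9.66%) and in HFD (background 5.59%), and no member was lower in db/db 8w (background 1.31%). PVM-side *Gpnmb* was at 5.89 CPM in WT and at 45.4, 218 and 205 CPM in the obese libraries.

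How much of each ratio went with the mixture of sides was described by weighting the LAM-side, PVM-side and remaining Mono/MAC-gated cells of each obese library as in WT, where the LAM side supplied 2.18% of Mono/MAC UMIs. With that weighting, the log2 ratio to WT of *Gpnmb* went from 5.55 to 3.17, from 6.63 to 4.40 and from 6.65 to 4.37. *Spp1* went from 5.06, 8.37 and 4.42 to 2.91, 5.37 and 2.005, and *Lgals3* from 2.83, 4.01 and 3.69 to 1.22, 2.26 and 1.92. *Lgals1* kept 0.86, 2.26 and 0.82. The 4 transcripts thus remained higher than in WT at an equal mixture of the sides as gated, by a smaller ratio. As the sides are ranges of a score, incomplete separation or free RNA cannot be told apart from a difference within a side. *Lgals9* stayed lower, at -1.03, -1.56 and -1.43, and *Cd44* went to 0.58, -1.09 and 0.84.

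**Figure D4:**
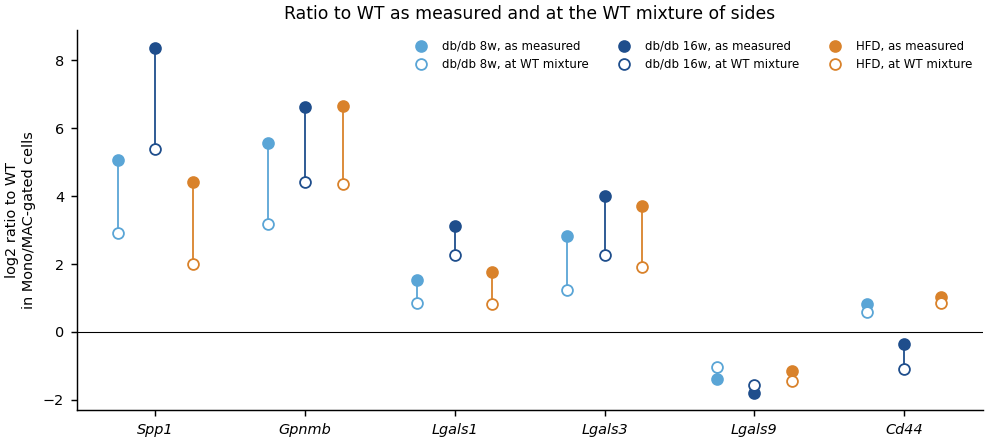
Log2 ratio to WT of each member in Mono/MAC-gated cells of the 3 obese libraries, as measured (filled circles) and with LAM-side, PVM-side and other cells weighted as in WT (open circles). For *Spp1*, *Gpnmb*, *Lgals1* and *Lgals3* the open circles lie between 0 and the filled ones, and for *Lgals9* all lie below 0.

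Between the 2 db/db ages, LAM-side cells themselves differed in some members and less in others. *Spp1* was higher at 16 weeks by log2 2.40 (2.33 to 2.46) and *Lgals1* by 1.10 (1.07 to 1.12), while *Lgals3* was higher by 0.41 and *Gpnmb* by 0.15 (background 4.41% past 2-fold higher). *Cd44* was lower by a log2 ratio of -1.08 (background 8.85%), and *Lgals9* differed by -0.04 (-0.31 to 0.24).

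Cycling transcripts marked 33.5%, 60.1% and 33.7% of the LAM-side cells of the obese libraries after thinning. *Gpnmb* was lower in the cycling than in the other LAM-side cells of all 3 libraries, at 1627 against 1760.1 CPM, 1713 against 2286 CPM and 1888 against 2835 CPM, and *Lgals1* was higher in all 3, by log2 0.19, 0.25 and 0.35. *Spp1* differed by -0.90, 0.27 and 0.37. Each of these log2 differences was smaller than 1.

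The share of cells with a UMI depends on depth, so each cell was thinned to 1000 UMIs and shallower cells were left out (0 to 214 Mono/MAC-gated cells per library). *Lgals3* was then found in 23.9% of WT Mono/MAC-gated cells (21.5% to 26.3%) and in 62.9%, 89.5% and 86.9% of those of the obese libraries. *Gpnmb* was found in 1.05%, 15.02%, 41.4% and 35.0%, and *Spp1* in 0.324%, 3.53%, 24.5% and 4.86%. The *Spp1* share in db/db 8w was thus not above that in HFD, unlike its summed level. The highest thinned Mono/MAC-gated cell held 20 *Spp1* UMIs in db/db 8w and 6 in HFD. On the LAM side the *Lgals3* share was 93.8% (15 of 16 cells) in WT and 94.5% to 96.9% in the obese libraries, whereas the *Spp1* share was 10.2%, 36.6% and 7.28% in the latter.

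Shares in T/NK-gated cells were taken as a low reference for free RNA. Activated T and NK cells can make osteopontin, so their *Spp1* share need not be free RNA alone. In db/db 16w none of 67 thinned T/NK cells held either transcript, which leaves an exact upper limit of 5.36%, and their median depth was 1805 UMIs against 5698 UMIs in Mono/MAC-gated cells before thinning. In db/db 8w the shares were 1.25% for *Spp1* and 2.50% for *Gpnmb* among 80 cells. In HFD, 2 of 26 T/NK cells held *Spp1* (7.69%, 0.946% to 25.1%), an interval that includes the Mono/MAC share, so the T/NK cells set no useful background there. In the larger endothelial and stromal gates of HFD the *Spp1* share was 0.358% (0.0740% to 1.04%) and 0.871% (0.477% to 1.46%), below that of Mono/MAC-gated cells (3.87% to 6.02%).

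**Figure D5:**
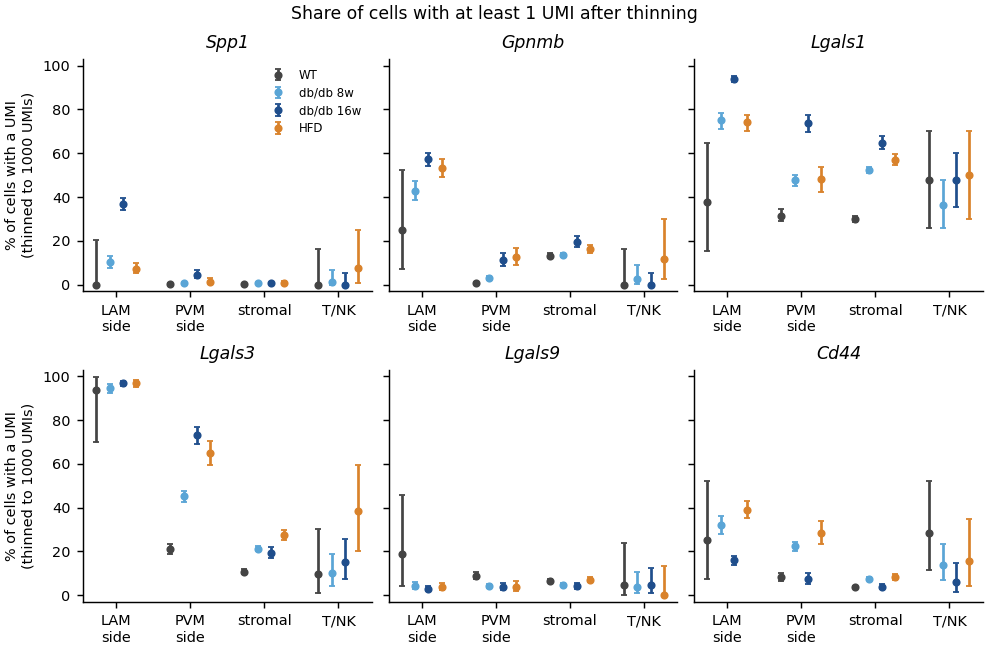
Percentage of cells with at least 1 UMI of each member after thinning to 1000 UMIs, on the LAM and PVM sides and in stromal-gated and T/NK-gated cells of the 4 libraries, with 95% exact binomial intervals. *Lgals3* is near the top of the scale on every LAM side, and *Spp1* on the LAM side exceeds 20% in db/db 16w only.

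*Spp1* was concentrated in fewer cells than *Gpnmb*, *Lgals1* and *Lgals3*. In thinned Mono/MAC-gated cells of db/db 16w, the top 10% of cells held 81.6% of its UMIs, the median cell held 0 and the highest held 64. The top 10% held 53.0% of *Gpnmb* UMIs, 28.3% of *Lgals1* UMIs and 30.1% of *Lgals3* UMIs in the same library. They also held 100% of the 65 *Lgals9* UMIs and 79.8% of the 362 *Cd44* UMIs. This share rises as the UMIs of a gene get fewer, so these low counts do not compare with the others. The median cell held 5 *Lgals3* UMIs in db/db 16w, 4 in HFD, 1 in db/db 8w and 0 in WT.

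Cells with *Spp1* more often held *Gpnmb*. In db/db 8w, 53.9% of the 102 cells with *Spp1* had a *Gpnmb* UMI, beside 13.6% of the cells without *Spp1*. The shares were 64.7% and 33.8% in db/db 16w (590 cells with *Spp1*) and 58.8% and 33.7% in HFD (80 cells). *Lgals3* was found in 95.1%, 97.3% and 96.2% of the cells with *Spp1* in the obese libraries, beside 61.7%, 86.9% and 86.4% of those without it. In WT only 4 cells held *Spp1*, 1 of them with *Lgals3*. By contrast, *Cd44* was found at similar shares with and without it (27.5% and 27.8% in db/db 8w, 14.9% and 12.4% in db/db 16w, 33.8% and 35.3% in HFD). As the cells of 1 library are not replicates, these shares are descriptions.

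Of 42 genes related to the members by family or binding, 41 were in the matrices, and 21 or 22 reached 20 CPM in Mono/MAC-gated cells. In db/db 8w 2 were past 2-fold higher and 2 lower, in db/db 16w 3 and 9, and in HFD 5 and 2, and the backgrounds are those given above. Of the integrin subunits that bind osteopontin, *Itgav* stood at 23.0 CPM in WT and at 82.8, 31.7 and 78.0 CPM in the obese libraries. *Itgb5*, a beta partner of *Itgav*, stood at 11.2, 33.9, 31.8 and 126 CPM. *Itga4*, the alpha-4 subunit, was past 2-fold lower in db/db 16w alone, at 99.0, 78.0, 27.6 and 119 CPM (log2 ratio -1.84 in that library). *Itgb1*, named after its values were seen, was past 2-fold higher in db/db 16w and HFD (178, 338, 456 and 435 CPM). *Itgav* was therefore lower in db/db 16w, the library with the most *Spp1*, than in the other obese libraries.

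*Lgals3bp*, the secreted galectin-3-binding protein, stood at 233 CPM in WT and lower, at 63.4, 45.2 and 139 CPM, in the obese libraries. Its log2 ratios were -1.88, -2.37 and -0.74, the last within 2-fold. Among the obese libraries it did not run opposite to *Lgals3* throughout, as HFD had more of both than db/db 8w. *Lgals8*, the other galectin compared, was within 2-fold throughout (50.2, 45.6, 54.0 and 48.2 CPM). The invariant chain *Cd74*, which signals with CD44, was at 6919, 5502, 822 and 7275 CPM and its ligand *Mif* at 73.4, 137, 384 and 147 CPM, so both stood apart in db/db 16w. *Msn*, encoding moesin, which links CD44 to actin, was past 2-fold higher in HFD alone (129, 255, 192 and 311 CPM). Of the galectin counter-receptors, *Mertk*, *Nrp1* and *Ptprc* were past 2-fold lower in db/db 16w and in no other obese library. The MiT/TFE genes *Mitf*, *Tfeb* and *Tfe3* were within 2-fold in db/db 8w and HFD, and *Tfe3* was lower in db/db 16w (82.9 CPM in WT, 34.3 CPM). Of other hyaluronan receptors, *Stab1* was lower in each obese library (log2 ratios -1.16, -1.36 and -1.75), and *Lyve1*, a marker of the PVM side, stood at 931, 512, 79.4 and 7.40 CPM. *Hmmr*, a receptor also known as a transcript of dividing cells, ran the other way, at 2.06 CPM in WT (17 UMIs) and 11.6, 37.7 and 22.5 CPM in the obese libraries, and was past 2-fold higher in db/db 16w and HFD.

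Across 10 sums of at least 100 cells (4 Mono/MAC, 4 stromal and 2 endothelial), the genes with a pattern most like each member were, by Pearson's r of log2(CPM + 10) among 5465 genes, *Vps29* for *Spp1* (0.98), *Flna* for *Gpnmb* (0.97), *Rpn1* for *Lgals1* (0.97), *Adam8* for *Lgals3* (0.99), *Ifit2* for *Lgals9* (0.98) and *Pi4k2a* for *Cd44* (0.98). The sums share libraries and depth, and these values are a description. No member was the nearest gene of another.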

How the data were processed

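Each library held a filtered 10x matrix of UMI counts per gene and barcode; the deposited counts were not normalized. Per the labels and the study's methods, reads were aligned to mm10 with Cell Ranger 7.1.0, whereas the file header names 6.0.0; the authors called cells with the same program. Counts were analysed with Python 3.11.15, numpy 2.4.6, scipy 1.17.1 and pandas 2.3.3. Quality limits were those of the study: 250 to 6000 genes and 500 to 30000 UMIs per cell, limits excluded, with a mitochondrial share below 15%. The study's subsampling and clustering were not repeated. A cell was gated to a lineage with at least 3 UMIs from at least 2 of its markers and at least 75% of all gating-marker UMIs; cells with 2 such lineages and no majority were set apart as mixed, which removes some doublets, and no doublet caller was run. Sides of the Mono/MAC gate used the same limits.

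UMIs were summed per gate and library and given as CPM with exact Poisson intervals, and ratios with exact conditional binomial intervals (95%). With 1 library per group no p-value between groups was computed. The 2-fold rule used log2 of CPM + 10 and a minimum of 20 CPM, which understates ratios of low genes. Thinning drew 1000 UMIs per cell with a fixed seed. Named genes were the 6 members, related genes chosen by family or binding (the 2 or 3 of each subgroup with the largest absolute log2 ratio in any comparison to WT, among genes with at least 20 CPM) and, for each member, the genes with the most similar pattern. The members and lists were chosen with earlier results of these data known. The rule and intervals were tried on counts simulated from the summed WT Mono/MAC-gated cells with counting error only, for genes with at least 20 CPM there. That trial does not cover variation between cells or libraries, the filter, or genes as low in WT as *Spp1* and *Gpnmb*. Alternatives covered the mitochondrial limit, pseudocount, scaling, weighting of cells, gate limits, thinning, deep cells, cycling cells and the LAM list.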

Additional observations from a re-analysis of the deposited data

Results flagged for a closer look

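*Cd44* in Mono/MAC-gated cells stood out because, in summed counts, its direction against WT was not shared by the obese libraries. Its log2 ratios were 0.81 for db/db 8w, 1.03 for HFD and -0.35 for db/db 16w. Each library is 1 sample, so the difference between them was not tested, and the db/db 16w value changed sign when cells were given equal weight (0.02), after thinning before gating (0.09) and without cycling cells (0.41), so a difference in direction is not established.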

How the results depend on the processing

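No paired analysis was possible because each group was 1 library, and for the same reason no library could be left out. No called value changed direction under the alternatives tried for it. These covered ratios to WT in Mono/MAC-gated, stromal-gated and all cells. They also covered the db/db ages in Mono/MAC-gated cells and the LAM side against the PVM side. The PVM-side ratios to WT and the LAM-side comparison of ages are given at the main settings only. In Mono/MAC-gated cells the count of higher members kept within 1.5 times of 4 throughout. The 1 lower member in HFD, *Lgals9*, became 0 with no mitochondrial limit, with CPM computed without mitochondrial and ribosomal genes, with equal weight per cell, without the deepest 10% of cells, without cycling cells, and without cycling cells as called after thinning, an alternative chosen after seeing the data; its log2 ratio with 10 CPM added was -1.003 and under these alternatives -0.745 to -0.999. The 1 lower member in db/db 8w became 0 without cycling cells. Over all cells of db/db 16w the 1 lower member became 0 with ratios centred on the median of all genes and with equal weight per cell. In stromal-gated cells the 2 higher members in db/db 8w became 1 with the gate at 90%, which *Lgals3* left. The 3 in db/db 16w became 1 without the deepest 10% of cells and became 1 with the gate at 90%, and *Lgals3* left there too (log2 ratios 0.88 and 0.79). Depth limits *Spp1* in WT (35 UMIs) and every value of the 16 WT LAM-side cells.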
